A study of Mus musculus with 35 samples.

Results

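Class I peptide loading and the immunoproteasome are followed here through 9 mouse genes, Tap1, Tap2, Tapbp, Psmb8, Psmb9, Psmb10, Psme1, Psme2 and Ubd. The members were the probe sets annotated to exactly 1 of these genes. This gave 12 probe sets for 8 genes, out of 12393 genes with such a probe set among 22626 probe sets. Psme2 shared its probe set with Psme2b, so no value is given for it.

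Tracheal tissue from mice was hybridised to 35 Affymetrix arrays in 7 groups of 5. Allografts were tracheas transplanted into MHC-incompatible recipients and collected on day 4, 14 or 25. Isografts were tracheas transplanted into MHC-compatible recipients and collected on the same days, and native tracheas were never transplanted. The strains, sexes and ages of donors and recipients are not given in the sources used here, and neither is whether arrays of a group came from separate animals, so p-values measure the spread between arrays. Grafts can hold donor and recipient cells in unknown proportions, and fewer cells of a type and less RNA per cell cannot be told apart in such tissue.

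MHC class I molecules display peptides from proteins made inside a cell to CD8 T cells. Proteasomes cut those proteins, the Tap1-Tap2 transporter pumps the peptides into the endoplasmic reticulum, and tapasin (Tapbp) holds an empty class I molecule at the transporter until a peptide fits. Interferon-gamma makes cells swap the catalytic proteasome subunits Psmb5, Psmb6 and Psmb7 for Psmb8, Psmb9 and Psmb10, which forms the immunoproteasome, and induces the activator cap built from Psme1 and Psme2. Ubd encodes FAT10, a ubiquitin-like protein that sends its targets to the proteasome and is induced by interferon-gamma and tumour necrosis factor. The response to foreign MHC makes class I display a classic subject of transplant biology.

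Of the 9 genes 6 lie on mouse chromosome 17. Tap1 and Psmb9 start close together and point away from each other there, so that 275 of the 300 bases in their promoter windows are the same DNA read from opposite strands. Promoter windows run from 250 bases before to 50 bases after the start of a gene and come from RefSeq (GRCm38.p6). Windows were found for 8 of the 9 genes, and Tap2 had none. The 4 windows below are shown because Tap1 and Psmb9 share theirs and because the other 3 hold the letters of a site linked to interferon or tumour necrosis factor signalling. Capitals mark matches on either strand to 3 patterns. The interferon-stimulated response element (ISRE) was searched as GAAA, any 2 bases and GAAA, the gamma-activated site (GAS) as TTCNNNGAA, and NF-kB as GGG, any 5 bases and CC. Matches to different patterns did not overlap.
Tap1 (shared with Psmb9 on the other strand), chr17:34187306-34187605, plus strand: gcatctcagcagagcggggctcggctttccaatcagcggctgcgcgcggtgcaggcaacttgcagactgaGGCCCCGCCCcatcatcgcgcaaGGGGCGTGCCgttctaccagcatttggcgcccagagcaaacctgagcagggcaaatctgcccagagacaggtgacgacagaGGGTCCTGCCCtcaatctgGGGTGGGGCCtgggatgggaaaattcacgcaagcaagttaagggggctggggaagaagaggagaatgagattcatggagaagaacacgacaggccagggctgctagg
Psmb8, chr17:34197945-34198244, plus strand: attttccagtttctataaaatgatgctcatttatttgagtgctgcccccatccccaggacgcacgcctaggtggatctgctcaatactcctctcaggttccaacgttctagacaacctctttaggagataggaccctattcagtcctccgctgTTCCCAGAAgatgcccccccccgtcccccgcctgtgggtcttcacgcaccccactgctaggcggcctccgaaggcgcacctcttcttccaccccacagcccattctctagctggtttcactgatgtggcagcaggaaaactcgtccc
Psme1, chr14:55578244-55578543, plus strand: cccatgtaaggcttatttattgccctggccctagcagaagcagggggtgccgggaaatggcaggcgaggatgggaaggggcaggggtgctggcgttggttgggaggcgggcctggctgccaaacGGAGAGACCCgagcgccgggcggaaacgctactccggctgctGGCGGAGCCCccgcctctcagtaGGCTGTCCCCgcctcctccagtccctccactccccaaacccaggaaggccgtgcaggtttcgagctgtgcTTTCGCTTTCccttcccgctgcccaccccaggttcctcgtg
Ubd, chr17:37193642-37193941, plus strand: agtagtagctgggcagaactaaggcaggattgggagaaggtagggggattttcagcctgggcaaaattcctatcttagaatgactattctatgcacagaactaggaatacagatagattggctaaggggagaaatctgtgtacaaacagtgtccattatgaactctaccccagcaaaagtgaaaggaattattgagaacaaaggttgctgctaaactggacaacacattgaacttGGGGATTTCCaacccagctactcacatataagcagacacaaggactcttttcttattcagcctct
Psmb8 held the GAS letters TTCCCAGAA, 97 to 89 bases before its start, and 8.3% of all 32851 windows held a GAS match. Psme1 held the ISRE letters TTTCGCTTTC, 10 to 19 bases into the transcript and on the minus strand, and 3.44% of all windows held an ISRE match. Ubd held the NF-kB letters GGGGATTTCC, 15 to 6 bases before its start. The NF-kB pattern is loose, with a match in 50.8% of all windows, and the capitals in the Tap1 window are 5 such matches, of which 2 overlap. The other 3 marked stretches in the Psme1 window are NF-kB matches too. Psme2 windows, which are not shown, held 3 NF-kB matches each, counted by strand, and no ISRE or GAS match. The windows of Psmb10 and Tapbp had no match to any of the 3 patterns. A match is a description of letters and not of a bound site.

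The values are log2 intensities, in which a difference of 1 is a 2-fold difference. Levels of different probe sets are not compared with each other. Testing with limma required a value of 5 or more in at least 5 arrays. This kept 8313 genes, and where several probe sets of a gene passed, the one brightest on average stood for it. A gene was called where its p, adjusted over all probe sets tested, was under 0.05. All 8 measured members passed this filter, but Ubd did so through 8 arrays that were all allografts, so it had to differ between the groups and counts are also given without it. Array medians lay between 5.07 and 5.30. Native replicate 5 and day 25 isograft replicate 5 correlated less with their own groups than other arrays of those groups did, and results that rest on them are given with and without them.

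**Figure D1:**
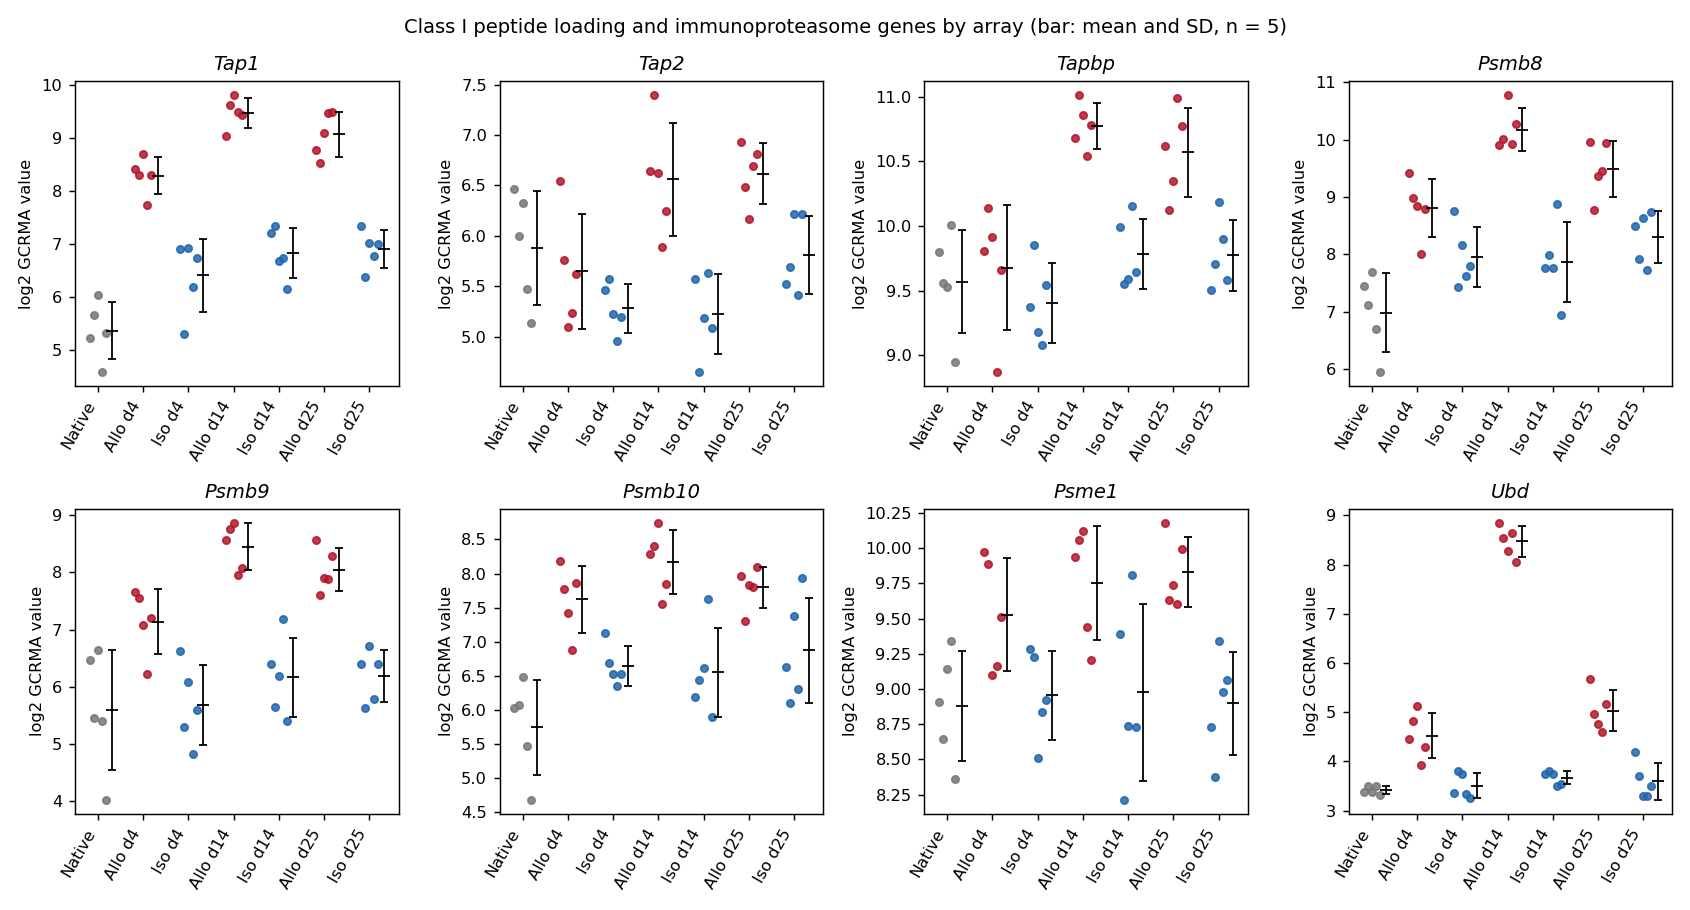
Log2 values of the 8 measured members in every array (points) with the mean and SD of each group (bars, n = 5), in native trachea and in allografts and isografts on days 4, 14 and 25. Each panel has its own scale. The 5 day 14 allografts lie above the 5 day 14 isografts for Tap1, Tap2, Tapbp, Psmb8, Psmb9 and Ubd, and the 2 groups overlap for Psmb10 and Psme1. Ubd stands at 8.05 to 8.85 in day 14 allografts and at 5.67 or below in every other array.

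The allograft-isograft comparison asked how grafts in MHC-incompatible and MHC-compatible recipients differed. The strains are not given, so other genetic differences between donor and recipient cannot be told apart from MHC mismatch. On day 4, Tap1 and Ubd rose in allografts and the other 6 members were not called, and the Ubd call was lost with these 2 groups fitted alone. On day 14 all 8 members rose, by 0.78 (Psme1) to 4.80 (Ubd) on the log2 scale. On day 25, 7 members rose, and Psmb10 was not called. No member was called lower on any day, where 0.0842%, 10.5% and 10.3% of all tested genes were. The share of all tested genes called higher was 0.469% on day 4, 10.8% on day 14 and 6.83% on day 25. Without Ubd, 1, 7 and 6 of the other 7 members were called. Of 9 genes of all leukocytes 1, 9 and 8 were called higher on the same days, and their part in these counts was not tested. The median difference over the 8 members was 0.92, 1.95 and 1.06 on days 4, 14 and 25, and without Ubd it was 0.86, 1.61 and 0.93, while over all genes tested it was 0.03, 0.03 and 0.00. Arrays of the 2 groups did not overlap for 2 members on day 4 (Tap1 and Ubd), 6 on day 14 and 5 on day 25, and the share of all genes higher with no overlap was 1.37%, 8.08% and 4.08%.

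**Figure D2:**
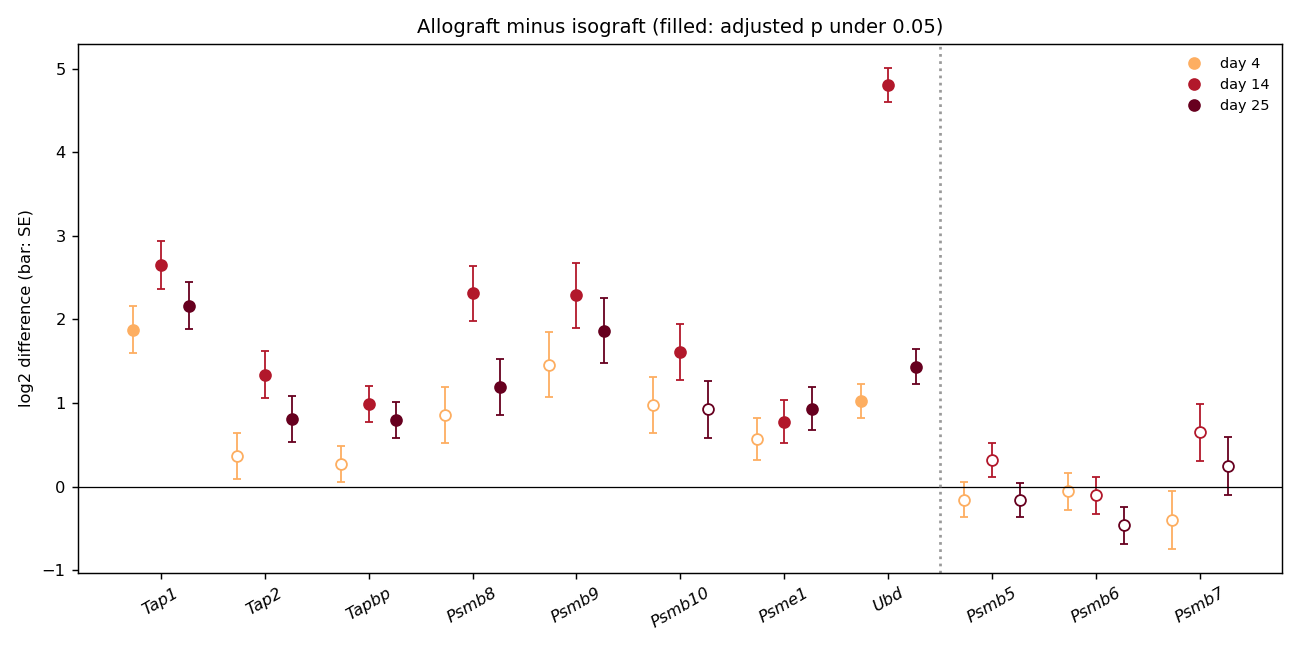
Allograft minus isograft differences on the log2 scale (points) with their SE (bars) on days 4, 14 and 25, for the 8 measured members and, right of the dotted line, the constitutive catalytic subunits Psmb5, Psmb6 and Psmb7. Filled points have an adjusted p under 0.05. All differences of members lie above 0, from 0.27 to 4.80, and none of those of the constitutive subunits is filled.

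Tap1, which carries peptides into the endoplasmic reticulum together with Tap2, separated allografts from isografts on every day. Its day 4 values were 8.42, 8.31, 8.71, 7.74 and 8.30 in allografts and 6.91, 5.31, 6.92, 6.19 and 6.74 in isografts. Its day 14 values were 9.05, 9.62, 9.82, 9.50 and 9.43 in allografts and 7.21, 7.34, 6.69, 6.75 and 6.16 in isografts. Its day 25 values were 8.78, 8.53, 9.10, 9.48 and 9.49 in allografts and 7.35, 6.39, 7.02, 6.78 and 7.01 in isografts. Every allograft array lay above every isograft array, whatever the day. The differences were 1.88 (SE 0.28, adjusted p = 9.34e-05) on day 4, 2.65 (SE 0.28, adjusted p = 1.62e-08) on day 14 and 2.17 (SE 0.28, adjusted p = 5.8e-07) on day 25, by limma. Within allografts Tap1 was higher on day 14 than on day 4, by 1.19 (adjusted p = 0.00631), and the day 25 value did not pass the test against day 14 (-0.41, adjusted p = 0.618). Tap1 had 3 further probe sets, which stayed between 1.57 and 3.72 in all 35 arrays and were not tested.

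Tap1 was also higher in isografts than in native trachea, whose values were 5.23, 5.67, 6.05, 4.59 and 5.32. Isografts exceeded native trachea by 1.05 (SE 0.28, adjusted p = 0.0036) on day 4, 1.46 (SE 0.28, adjusted p = 0.000417) on day 14 and 1.54 (SE 0.28, adjusted p = 0.00032) on day 25. The day 14 and day 25 isografts all lay above the native arrays, and on day 4 only isograft replicate 2, at 5.31, lay among them. Allografts exceeded native trachea by 2.92 (adjusted p = 9.83e-10), 4.11 (adjusted p = 3.82e-13) and 3.71 (adjusted p = 2.75e-12) on days 4, 14 and 25. These 6 comparisons share the same native arrays, and the mean of the leukocyte genes was also lower in native trachea (6.10 to 7.51) than in every graft.

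Tap2, the other chain of the transporter, was called on days 14 and 25. Allografts had 5.09 to 6.54 (median 5.62) on day 4, against 4.95 to 5.57 (median 5.22) in isografts. On day 14 they had 5.89 to 7.40 (median 6.62), against 4.65 to 5.63 (median 5.18) in isografts. On day 25 they had 6.17 to 6.93 (median 6.69), against 5.41 to 6.22 (median 5.69) in isografts. The groups overlapped on days 4 and 25 and not on day 14. Tap2 rose by 1.34 (SE 0.28, adjusted p = 0.000566) on day 14 and by 0.81 (SE 0.28, adjusted p = 0.0456) on day 25, and was not called on day 4 (0.37, adjusted p = 1). The day 25 call was lost when any 1 of 7 arrays was left out, namely isograft replicates 1, 2 and 4 and allograft replicates 1, 2, 4 and 5 (0.71 to 0.84, adjusted p 0.0564 to 0.125). With every array kept, it was lost without the filter (0.81, adjusted p = 0.0636) and with centring on scaling reference genes (0.68, adjusted p = 0.0662). Native trachea had 6.47, 6.0, 6.33, 5.47 and 5.13, and isografts differed from it by -0.60 (adjusted p = 0.0778), -0.66 (adjusted p = 0.0721) and -0.07 (adjusted p = 0.894) on days 4, 14 and 25, none of them called. Without native replicate 5, the lowest native array, Tap2 was called lower in isografts on day 4 (-0.79, adjusted p = 0.0233) and day 14 (-0.84, adjusted p = 0.0215). Allografts exceeded native trachea in Tap2 on day 14 (0.68, adjusted p = 0.0442) and day 25 (0.74, adjusted p = 0.0373). The day 14 call was lost without any 1 of native replicates 2, 4 and 5 and allograft replicates 1, 2 and 3 (0.47 to 0.71, adjusted p 0.0547 to 0.168). The day 25 call was lost without any 1 of native replicates 4 and 5 and allograft replicates 1, 4 and 5 (0.55 to 0.72, adjusted p 0.0637 to 0.12).

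Tapbp, which encodes tapasin, was called on days 14 and 25. Its day 4 values overlapped, at 8.87 to 10.14 in allografts and 9.08 to 9.86 in isografts. On day 14 they were 10.68, 11.02, 10.86, 10.54 and 10.78 in allografts and 9.99, 9.55, 9.59, 10.16 and 9.65 in isografts. On day 25 they were 10.62, 10.12, 10.35, 10.99 and 10.78 in allografts and 9.50, 9.71, 10.19, 9.90 and 9.58 in isografts. The day 14 groups did not overlap, and on day 25 allograft replicate 2, at 10.12, lay under isograft replicate 3. The differences were 0.27 (adjusted p = 1) on day 4, 0.99 (SE 0.21, adjusted p = 0.000886) on day 14 and 0.80 (SE 0.21, adjusted p = 0.00784) on day 25. A second Tapbp probe set with lower values gave 1.10 (adjusted p = 0.085) on day 14 and 0.35 (adjusted p = 0.695) on day 25, so the calls rest on the brighter probe set. Native trachea had 8.95 to 10.01, and no isograft group was called against it (-0.16, 0.22 and 0.21 on days 4, 14 and 25). Allografts were called against native trachea by limma on day 14 (1.21, adjusted p = 2.75e-05) and day 25 (1.00, adjusted p = 0.000373). With the second probe set both calls were lost (0.80, adjusted p = 0.139, and 0.38, adjusted p = 0.531).

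Psmb8, the immunoproteasome counterpart of Psmb5, was called on days 14 and 25. On day 4 its values were 9.41, 8.98, 8.85, 8.01 and 8.80 in allografts and 8.76, 7.43, 8.17, 7.62 and 7.81 in isografts. Its day 14 values were 9.91, 10.01, 10.78, 9.92 and 10.27 in allografts and 7.76, 7.99, 7.76, 8.88 and 6.95 in isografts. Its day 25 values were 9.95, 8.77, 9.36, 9.46 and 9.94 in allografts and 8.50, 7.92, 8.64, 7.72 and 8.74 in isografts. The groups overlapped on day 4 and did not on days 14 and 25, although on day 25 allograft replicate 2 (8.77) lay just above isograft replicate 5 (8.74). The differences were 0.86 (adjusted p = 0.626) on day 4, 2.31 (SE 0.33, adjusted p = 3.23e-06) on day 14 and 1.19 (SE 0.33, adjusted p = 0.0106) on day 25.

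Psmb9, the counterpart of Psmb6, was called on the same days, with a wide spread on day 4. On day 4 allografts and isografts overlapped, with 7.66, 7.55, 7.07, 6.22 and 7.20 in allografts and 6.63, 5.29, 6.07, 4.81 and 5.60 in isografts. Its day 14 values were 8.57, 8.76, 8.87, 7.96 and 8.08 in allografts and 6.40, 5.64, 6.19, 7.18 and 5.40 in isografts. Its day 25 values were 8.57, 7.61, 7.90, 7.89 and 8.28 in allografts and 6.40, 5.63, 6.71, 5.78 and 6.40 in isografts. On days 14 and 25 every allograft lay above every isograft, and on day 4 allograft replicate 4 lay among the isografts. The difference was 1.46 (SE 0.39, adjusted p = 0.105) on day 4 and so not called, 2.29 (SE 0.39, adjusted p = 4.68e-05) on day 14 and 1.87 (SE 0.39, adjusted p = 0.000659) on day 25. On day 4 it was called without allograft replicate 4 (1.69, adjusted p = 0.0336), without isograft replicate 1 (1.70, adjusted p = 0.0422) and without both arrays that stood apart (adjusted p = 0.0356).

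Psmb10, the counterpart of Psmb7 and the catalytic subunit encoded outside chromosome 17, on chromosome 8, overlapped between groups on days 4, 14 and 25. On day 4 the values were 8.18, 7.77, 7.42, 6.89 and 7.86 in allografts and 7.13, 6.69, 6.52, 6.36 and 6.53 in isografts. Its day 14 values were 8.28, 8.40, 8.75, 7.56 and 7.84 in allografts and 6.19, 6.45, 6.61, 7.62 and 5.91 in isografts. Its day 25 values were 7.96, 7.31, 7.83, 7.81 and 8.09 in allografts and 6.63, 6.11, 7.38, 6.31 and 7.94 in isografts. On day 4 allograft replicate 4 lay below isograft replicate 1, on day 14 isograft replicate 4 reached the lowest allograft, and on day 25 isograft replicates 3 and 5 reached the allograft range. The differences were 0.98 (adjusted p = 0.443) on day 4, 1.61 (SE 0.34, adjusted p = 0.000615) on day 14 and 0.92 (SE 0.34, adjusted p = 0.0622) on day 25. On day 25 Psmb10 was called without isograft replicate 5 (1.19, adjusted p = 0.0112), which stood apart, without isograft replicate 3 (1.05, adjusted p = 0.0477) and without allograft replicate 2 (1.05, adjusted p = 0.0449). With every array kept, it was called with array weights (1.28, adjusted p = 0.00179). It was also called with repeated quantile normalization (0.96, adjusted p = 0.0388) and with centring on the array median (0.97, adjusted p = 0.0291).

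Isografts and allografts were also set against native trachea for the 3 immunoproteasome subunits. Native values were 7.45, 7.11, 7.70, 6.71 and 5.95 for Psmb8. They were 6.46, 5.45, 6.64, 5.40 and 4.02 for Psmb9. They were 6.03, 6.07, 6.49, 5.47 and 4.68 for Psmb10. Native replicate 5 was the lowest native array for all 3. Isografts exceeded native trachea in Psmb8 by 0.97 (adjusted p = 0.0179), 0.88 (adjusted p = 0.0437) and 1.32 (adjusted p = 0.0066) on days 4, 14 and 25. For Psmb10 the differences were 0.90 (adjusted p = 0.0303), 0.81 (adjusted p = 0.0692) and 1.13 (adjusted p = 0.0212). For Psmb9 they were 0.09 (adjusted p = 0.873), 0.57 (adjusted p = 0.276) and 0.59 (adjusted p = 0.309), and none was called. Without native replicate 5 the isograft calls of Psmb8 on day 4 (0.71, adjusted p = 0.0765) and day 14 (0.62, adjusted p = 0.139) and of Psmb10 on day 4 (0.63, adjusted p = 0.122) and day 25 (0.86, adjusted p = 0.0641) were lost. The day 4 calls of Psmb8 (0.77, adjusted p = 0.0668) and Psmb10 (0.78, adjusted p = 0.0785) were also lost without isograft replicate 1, and that of Psmb10 without native replicate 4 (0.83, adjusted p = 0.065). The day 14 call of Psmb8 was lost without any 1 of native replicates 2, 4 and 5 and isograft replicates 1 to 4 (0.62 to 0.91, adjusted p 0.0572 to 0.141). The day 25 call of Psmb10 was lost without native replicate 4 (1.06, adjusted p = 0.0519) and isograft replicates 3 (1.00, adjusted p = 0.0561) and 5 (0.86, adjusted p = 0.0737). On day 14 leaving out native replicate 3 (0.99, adjusted p = 0.0379), and likewise isograft replicate 5 (0.97, adjusted p = 0.0421), made Psmb10 called, as it was under 3 other scalings of the arrays (0.95 to 0.97). In allografts all 3 subunits rose above native trachea on all 3 days, by 1.55 (Psmb9, day 4) to 3.19 (Psmb8, day 14).

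**Figure D3:**
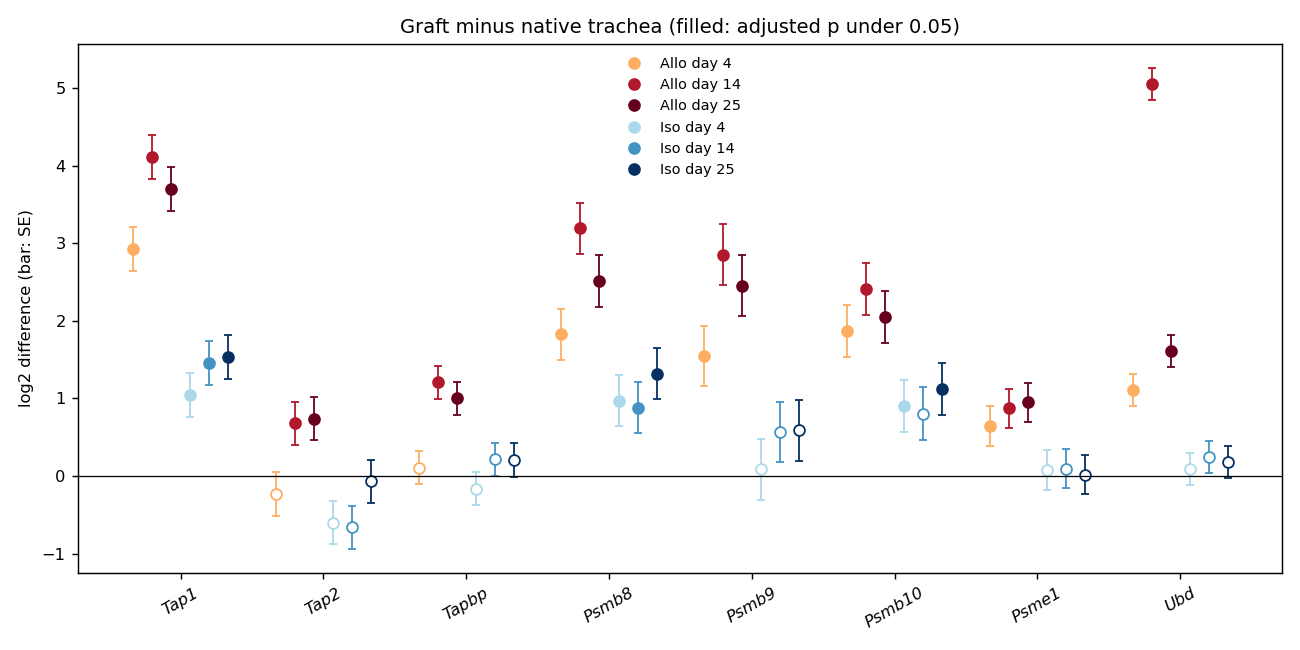
Graft minus native trachea differences on the log2 scale (points) with their SE (bars) for the 8 measured members, allografts left of isografts within each gene and each in the order of days 4, 14 and 25. Filled points have an adjusted p under 0.05. Filled isograft points occur for Tap1, Psmb8 and Psmb10 only, and open allograft points for Tap2 and Tapbp on day 4 only.

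Psme1, a subunit of the activator cap that opens the proteasome, differed by less than 1 on the log2 scale. Day 4 gave 9.10 to 9.97 in allografts and 8.51 to 9.28 in isografts. Its day 14 values were 9.94, 10.06, 10.12, 9.44 and 9.21 in allografts and 9.39, 8.21, 8.74, 9.81 and 8.73 in isografts. Its day 25 values were 10.18, 9.63, 9.74, 9.61 and 9.99 in allografts and 8.73, 8.37, 9.34, 8.98 and 9.07 in isografts. The groups overlapped on days 4 and 14 and were apart on day 25. The differences were 0.57 (adjusted p = 0.836), 0.78 (SE 0.25, adjusted p = 0.0288) and 0.93 (SE 0.25, adjusted p = 0.00883) on days 4, 14 and 25. The day 14 call was lost when any 1 of 6 arrays was left out, namely isograft replicates 2, 3 and 5 and allograft replicates 1, 2 and 3 (0.59 to 0.73, adjusted p 0.0594 to 0.121). Native trachea had 8.36 to 9.34, and isograft means differed from it by 0.08, 0.10 and 0.02 on days 4, 14 and 25. Allografts exceeded it by 0.65 (adjusted p = 0.0376), 0.87 (adjusted p = 0.00578) and 0.95 (adjusted p = 0.00374) on days 4, 14 and 25, and the day 4 call was lost without any 1 of native replicates 1, 2 and 5 and allograft replicates 1, 2 and 5 (0.52 to 0.66, adjusted p 0.0538 to 0.108).

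Ubd, the gene of FAT10, was called on days 4, 14 and 25 and was highest on day 14. On day 4 it had 4.46, 4.82, 5.13, 3.93 and 4.30 in allografts and 3.36, 3.81, 3.75, 3.34 and 3.26 in isografts. Its day 14 values were 8.85, 8.53, 8.27, 8.65 and 8.05 in allografts and 3.74, 3.80, 3.74, 3.51 and 3.55 in isografts. Its day 25 values were 5.67, 4.96, 4.77, 4.59 and 5.17 in allografts and 4.20, 3.70, 3.29, 3.29 and 3.49 in isografts. Allografts lay above isografts without overlap on days 4, 14 and 25. On day 14 they lay above all other arrays of the series. The differences were 1.02 (SE 0.21, adjusted p = 0.00604) on day 4, 4.80 (SE 0.21, adjusted p = 1.64e-17) on day 14 and 1.44 (SE 0.21, adjusted p = 2.75e-06) on day 25. The day 4 call was lost when day 4 allografts and isografts were fitted alone (1.02, adjusted p = 0.131). Native trachea had 3.37, 3.50, 3.38, 3.51 and 3.32, and isografts did not differ from it by more than 0.25 in any group mean (adjusted p 0.367 to 0.756). Isograft and native values of about 3 to 4 are near the background of these arrays, so the size of a fold against them can depend on the authors' background model. Within allografts Ubd was higher on day 14 than on day 4 by 3.94 (SE 0.21, adjusted p = 5.92e-15) and lower on day 25 than on day 14, with a difference of -3.44 (SE 0.21, adjusted p = 3.23e-13).

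The change of the allograft-isograft difference between days was tested as an interaction for every member. On day 14 against day 4 it changed for Ubd by 3.78 (SE 0.29, adjusted p = 3.64e-10), and 1 of the 8 members was called, with 2.67% of all genes called higher. On day 25 against day 14 it changed for Ubd by -3.37 (SE 0.29, adjusted p = 7.93e-09), again as 1 of 8 members, with 0.77% of all genes called lower. For Psmb8 the day 14 gain over day 4 was 1.46 (adjusted p = 0.0579), just outside the threshold, and leaving out isograft replicate 2 of day 4 (1.59, adjusted p = 0.0463), or that numbered 4 of day 14 (1.71, adjusted p = 0.0189), brought it within. Leaving out allograft replicate 1 of day 4 did so too (1.61, adjusted p = 0.0352). Without that array Tap2 was also called (1.19, adjusted p = 0.0494), and with every array it was not (0.97, adjusted p = 0.159). Single days on which other members were or were not called are therefore not shown to differ from each other. Directly between allografts, 6 of 8 members were higher on day 14 than on day 4, with 3.66% of all genes called higher, and 5 of 7 without Ubd. They were Tap1, Tap2 (0.91, adjusted p = 0.0359), Tapbp (1.10, adjusted p = 0.000796), Psmb8 (1.37, adjusted p = 0.00697), Psmb9 (1.31, adjusted p = 0.0318) and Ubd, while Psmb10 (0.54, adjusted p = 0.375) and Psme1 (0.23, adjusted p = 0.665) were not called. The call of Tap2 was lost without any 1 of day 4 replicates 2 to 5 and day 14 replicates 1 to 3 (0.70 to 0.94, adjusted p 0.0545 to 0.132). The call of Psmb9 was lost without any 1 of day 4 replicates 3 to 5 and day 14 replicates 1 to 3 (1.08 to 1.32, adjusted p 0.054 to 0.115). That of Tapbp was lost with its second probe set (0.91, adjusted p = 0.231 by limma). Between day 25 and day 14 allografts, Ubd alone was called, lower, with 1.89% of all genes called lower.

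Isografts showed no called member between days. On day 14 against day 4, limma called 0 of 8 members and 0 at an unadjusted p under 0.05, with 11.4% of all genes called higher and 12.6% lower. On day 25 against day 14 it called 0 of 8 members, 1 at an unadjusted p under 0.05 (Tap2, 0.59), with 0% of all genes called and 477 higher and 72 lower at an unadjusted p under 0.05. Against native trachea, isografts had 3 of 8 members called higher on day 4, 2 on day 14 and 3 on day 25, with 20.2%, 12.1% and 9.89% of all genes called higher. Without native replicate 5, 1, 1 and 2 members were called higher on days 4, 14 and 25, and Tap2 was called lower on days 4 and 14. Allografts had 6, 8 and 8 of 8 called, with 22%, 21.5% and 18.4% of all genes called higher, and 5, 7 and 7 of 7 without Ubd.

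Ordered by level, the allograft groups came first for every member on days 14 and 25. For Tap1 the order was day 14, 25 and 4 allografts, day 25, 14 and 4 isografts, and native trachea, and the neighbours that differed were day 4 allografts over day 25 isografts (1.38, adjusted p = 0.000548) and day 4 isografts over native trachea. For Ubd the neighbours that differed were day 14 over day 25 allografts and day 4 allografts over day 14 isografts (0.86, adjusted p = 0.00255). Of 48 neighbouring pairs of groups over the 8 members, 7 differed. The other 3 were day 14 allografts over native trachea for Tap2, day 25 allografts over day 14 isografts for Tapbp (0.79, adjusted p = 0.00894) and day 14 isografts over native trachea for Psmb8. Psmb9, Psmb10 and Psme1 had no neighbours that differed.

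The induced catalytic subunits were also set against the subunits they replace, as the log2 value of one minus that of the other within an array, relative to the mean of native trachea. This compares transcripts in mixed tissue and not the makeup of proteasomes, and 1, 9 and 8 of 9 leukocyte genes were called higher in allografts on days 4, 14 and 25, whose part was not tested. This measure was chosen after seeing the data. Groups were compared by permuting array labels exactly (two-sided, 252 assignments, smallest possible p = 0.00794), with p adjusted over 9 tests. Psmb9 minus Psmb6 was 1.24 to 2.14 in day 4 allografts and -0.49 to 0.74 in day 4 isografts, and the groups did not overlap on this or either later day. The difference was 1.52 on day 4, 2.39 on day 14 and 2.33 on day 25 (exact p = 0.00794 and adjusted p = 0.0119 each). Psmb8 minus Psmb5 differed by 1.01 on day 4 (exact p = 0.0238, adjusted p = 0.0306), 2.00 on day 14 and 1.35 on day 25 (exact p = 0.00794, adjusted p = 0.0119 on both days). The day 4 call for Psmb8 was lost when any 1 of 7 arrays was left out, isograft replicates 2, 4 and 5 and allograft replicates 1, 2, 3 and 5 (0.88 to 1.08, adjusted p = 0.0612 by the exact test).

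Psmb10 minus Psmb7 separated the groups on day 4 and not later. The change between days was not tested. It was 1.79 to 2.73 in day 4 allografts and 0.65 to 1.22 in day 4 isografts, with a difference of 1.37 (exact p = 0.00794, adjusted p = 0.0119). On day 14 it was 2.46 to 3.57 in allografts and 0.85 to 3.33 in isografts, and on day 25 it was 1.73 to 3.72 in allografts and 1.22 to 3.05 in isografts. The later groups overlapped, with differences of 0.96 (exact p = 0.111, adjusted p = 0.125) and 0.68 (exact p = 0.198, adjusted p = 0.198). Without day 14 isograft replicate 4 the day 14 difference was 1.30 (adjusted p = 0.0357 by the exact test). Psmb7 itself, the constitutive subunit, was lower in day 14 isografts than in day 4 isografts (-1.02, adjusted p = 0.0306), and its allograft-isograft difference was -0.40 (adjusted p = 1) on day 4 and 0.65 (adjusted p = 0.213) on day 14.

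**Figure D4:**
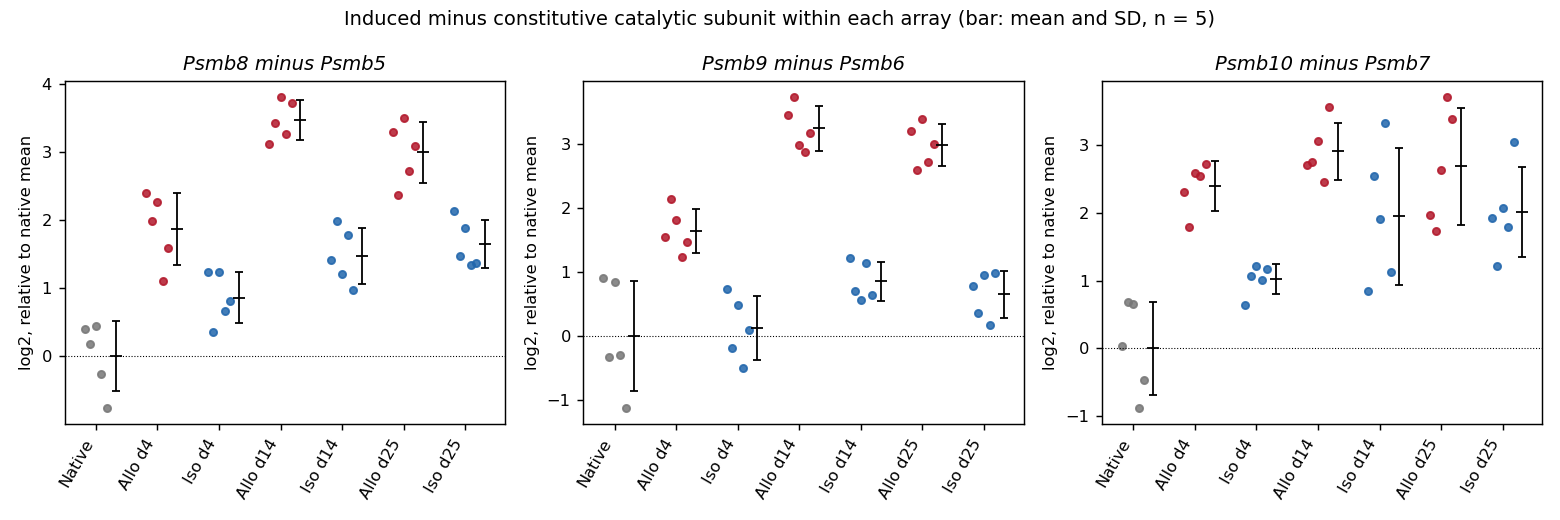
Induced minus constitutive catalytic subunit within each array, in log2 relative to the native mean (points), with the mean and SD of each group (bars, n = 5). Allografts lie clear of isografts on all 3 days for Psmb9 minus Psmb6, on days 14 and 25 for Psmb8 minus Psmb5 and on day 4 for Psmb10 minus Psmb7.

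The rest of the pathway was read from lists of related genes, each with the median of its allograft-isograft differences on days 4, 14 and 25. The 3 constitutive catalytic subunits had 0 called on days 4, 14 and 25 by limma (medians -0.16, 0.32 and -0.16). At an unadjusted p under 0.05 there were 0, 0 and 1, the last lower in allografts. Of the 14 other 20S core subunits and assembly factors, 0, 2 and 0 were called higher on days 4, 14 and 25 (medians 0.02, 0.31 and 0.10). At an unadjusted p under 0.05, 1, 6 and 1 were higher and 0, 1 and 2 lower. The 2 called on day 14 were Psmb2 (1.07, adjusted p = 0.0205) and Psma5 (0.71, adjusted p = 0.0335), non-catalytic subunits of the 20S core. Of 17 genes of the 19S regulator, which feeds ubiquitinated proteins into the core, 1 was called on day 14 and it was lower (Psmd11, -0.55, adjusted p = 0.0349). The medians of the list were 0.03, 0.15 and 0.01, and 0 and 1 of its genes differed on days 4 and 25 at an unadjusted p under 0.05. The other activators Psme3 (0.53, adjusted p = 0.072 on day 14) and Psme4 were not called by limma on any of the 3 days, with 0, 1 and 0 at an unadjusted p under 0.05.

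On the loading side, 1 of 5 other chaperones was called on days 14 and 25 and none on day 4 (1 at an unadjusted p under 0.05), with medians of -0.08, 0.36 and -0.17. It was Tapbpl, a tapasin-related peptide editor that rose by 1.00 (SE 0.17, adjusted p = 4.54e-05) on day 14 and 0.96 (SE 0.17, adjusted p = 7.36e-05) on day 25. The general chaperones were not called, with Calr at 0.21 and Pdia3 at 0.56 on day 14. Of 6 peptidases that trim peptides 1 was called on the same 2 days, Erap1, which trims them inside the endoplasmic reticulum (medians 0.12, 0.35 and -0.23). At an unadjusted p under 0.05, 2 of these peptidases were lower on day 25, as was 1 of the 5 chaperones. Erap1 had 5.47 to 6.65 in day 14 allografts and 4.40 to 5.19 in day 14 isografts, and rose by 1.27 (SE 0.24, adjusted p = 0.000154) on day 14 and 1.10 (SE 0.24, adjusted p = 0.000875) on day 25. Lap3, a cytosolic trimming peptidase, gave 0.47 (adjusted p = 0.273) on day 14.

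Of 7 tested class I genes, heavy chains and B2m, 0, 6 and 4 were called higher on days 4, 14 and 25, with 0, 6 and 5 at an unadjusted p under 0.05 (medians 0.15, 0.84 and 0.69). B2m, the light chain of class I, had 12.96, 13.10, 12.85, 12.98 and 12.87 in day 14 allografts and 12.28, 12.27, 12.23, 12.11 and 12.37 in day 14 isografts, with no overlap. It rose by 0.70 (adjusted p = 0.00211) on day 14 and 0.80 (adjusted p = 0.000503) on day 25. H2-K1, a classical heavy chain, rose by 1.00 (adjusted p = 0.000284) on day 14 and 0.69 (adjusted p = 0.0126) on day 25, and H2-D1 rose by 0.84 (adjusted p = 0.00256) on day 14 and gave 0.53 (adjusted p = 0.0793) on day 25. H2-Q10, a non-classical heavy chain, had the largest called day 14 difference of the list (1.22, adjusted p = 0.0444). Heavy chain genes are close copies of each other and differ between strains, so their probe sets can share signal. On day 4 B2m and H2-K1 differed by 0.04 and 0.16, beside 1.88 for Tap1.

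Among 13 tested regulators of interferon and tumour necrosis factor signalling, 0, 5 and 4 were called higher on days 4, 14 and 25, with 1, 8 and 6 at an unadjusted p under 0.05 (medians 0.21, 0.59 and 0.57). Irf1, an interferon-induced transcription factor for class I genes, had 9.02, 9.40, 9.17, 8.99 and 8.93 in day 14 allografts and 8.26, 8.0, 8.09, 7.58 and 7.46 in day 14 isografts. It differed by 0.73 (adjusted p = 0.0535) on day 4, 1.22 (adjusted p = 5.83e-06) on day 14 and 1.14 (adjusted p = 1.66e-05) on day 25. Irf8, a factor of myeloid cells, rose by 1.21 (adjusted p = 0.0151) on day 14 and 1.16 (adjusted p = 0.0237) on day 25. Ifng, which encodes interferon-gamma, lay below the filter and was not tested. It had 4.42, 5.09, 5.55, 5.74 and 5.34 in day 14 allografts and 3.62, 3.16, 3.09, 3.01 and 2.91 in day 14 isografts. On day 25 it had 4.28, 3.48, 3.13, 4.55 and 3.71 in allografts and 3.32, 3.13, 2.78, 2.89 and 2.77 in isografts, and on day 4 2.98 to 3.53 in allografts and 2.86 to 3.25 in isografts. Its highest group was day 14 allografts, as for Ubd, Irf1, Tap1, Tapbp, Psmb8, Psmb9 and Psmb10. Whether these levels are linked was not tested. Of 3 tested partners of FAT10 and the related modifier ISG15, Uba7 alone was called, on day 14 (0.77, adjusted p = 0.0315).

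**Figure D5:**
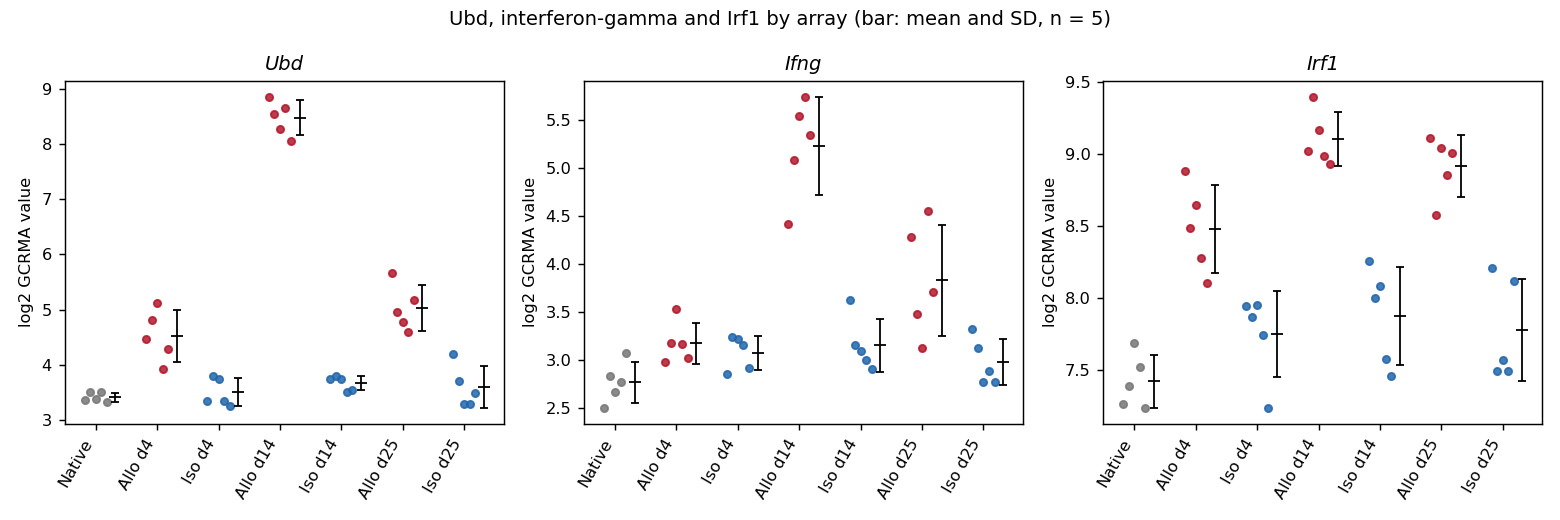
Log2 values of Ubd, Ifng and Irf1 in every array (points) with the mean and SD of each group (bars, n = 5). The highest arrays of all 3 genes are day 14 allografts. Day 14 and day 25 allografts do not overlap for Ubd, and overlap for Ifng, where day 25 replicate 4 (4.55) lies above day 14 replicate 1 (4.42), and for Irf1 (8.93 to 9.40 on day 14, 8.57 to 9.11 on day 25).

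The 8 genes most like the members over the 35 arrays were Irgm2, C1qc, Il18bp, Xdh, H2-D1, Irf1, Igtp and Gbp8. Likeness was the mean absolute difference, in SD units, between a gene standardised over the arrays and the mean of the 8 standardised members, and it covers arrays that share their group. It was 0.31 for Irgm2 and 0.37 for Gbp8, against a median of 1.08 over 8313 genes. The members themselves ran from 0.18 (Psmb9) to 0.50 (Tap2). They were chosen for following the members over these arrays, so their allograft-isograft differences are no independent support. On day 4, 3 of the 8 were called higher and 5 were not. Irgm2 and Igtp, interferon-inducible GTPases, rose on day 4 by 1.88 (adjusted p = 0.000288) and 1.87 (adjusted p = 0.000117). Gbp8, a guanylate-binding protein, rose by 2.11 (adjusted p = 0.0031) on day 4 and by 4.63 (adjusted p = 2.27e-10) on day 14. C1qc, a complement gene of macrophages, gave 1.05 (adjusted p = 0.167) on day 4 and 1.78 (adjusted p = 4.32e-05) on day 14. Il18bp, a decoy for the cytokine IL-18, gave 1.06 (adjusted p = 0.386) on day 4 and 3.04 (adjusted p = 8.35e-08) on day 14. Xdh, a purine oxidase, gave 1.22 (adjusted p = 0.246) on day 4 and 2.64 (adjusted p = 2.48e-06) on day 14. H2-D1 (0.26, adjusted p = 1) and Irf1 (0.73, adjusted p = 0.0535) were likewise not called on day 4. Without both arrays that stood apart Irf1 ranked at place 10 rather than among these 8.

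Leukocyte markers were also higher in allografts than in isografts on days 14 and 25, and their part in the results was not tested. Counts for further steps are given as a description only. From native trachea to day 4 isografts, limma had 9 of 9 leukocyte genes and 3 of 8 members higher (1 lower) at an unadjusted p under 0.05. From day 4 to day 14 allografts it had 1 of 9 leukocyte genes and 6 of 8 members higher. In that step 7 of 9 T cell, 6 of 6 cytotoxic and NK cell and 3 of 4 B and plasma cell genes were higher. So were 3 of 13 macrophage (1 lower) and 2 of 8 dendritic cell genes. From native trachea to day 4 isografts these lists had 1 (3 lower), 4, 1 (2 lower), 11 (1 lower) and 4 (1 lower) higher. Over all 8313 genes tested, 1948 and 754 were higher in these steps. The mean log2 value of 9 genes of all leukocytes was 9.12 to 9.69 in day 4 allografts and 8.67 to 9.21 in day 4 isografts. On day 14 it was 9.22 to 9.92 in allografts and 8.15 to 8.53 in isografts, and on day 25 9.22 to 10.45 in allografts and 8.01 to 9.39 in isografts. Native trachea had 6.10 to 7.51, below every graft. Ptprc, the common leukocyte antigen, differed by 0.63 (adjusted p = 0.955) on day 4, 1.29 (adjusted p = 0.00369) on day 14 and 1.26 (adjusted p = 0.00493) on day 25.

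The other marker lists were read in the same way. For 10 cytotoxic and NK cell genes the mean was 4.41 to 5.13 in day 4 allografts and 3.98 to 4.42 in day 4 isografts. It was 5.44 to 6.47 in day 14 allografts and 3.89 to 4.07 in day 14 isografts, and 5.49 to 6.15 in day 25 allografts and 3.62 to 4.40 in day 25 isografts. Prf1, Ncr1 and Fasl had a mean below 5 in all 7 groups. For 12 T cell genes it was 3.81 to 4.30 in day 4 allografts and 3.82 to 4.22 in day 4 isografts, with the group means of Cd3d, Cd3e and Cd3g, which define T cells, below 5 in both, and 4.73 to 5.63 in day 14 allografts and 4.01 to 4.40 in day 14 isografts. For 13 macrophage genes it was 9.30 to 9.87 in day 14 allografts and 8.39 to 8.58 in day 14 isografts. Of the genes tested, 8 of 13 macrophage, 5 of 9 T cell and 6 of 6 cytotoxic genes were called higher in allografts on day 14. B and plasma cell genes averaged 4.86 to 6.34 in day 14 allografts and 4.66 to 5.20 in day 14 isografts. Dendritic cell genes averaged 5.52 to 6.48 and 5.56 to 5.67 in the same groups. Of tissue markers on day 14, 8 of 8 secretory epithelium genes, 4 of 4 ciliated, 7 of 8 airway epithelium, 6 of 9 cartilage, 6 of 8 skeletal muscle and 2 of 2 thyroid and parathyroid genes were called lower in allografts (medians -7.28, -3.15, -2.39, -2.17, -4.64 and -8.65). On day 25 cartilage and skeletal muscle had 0 called by limma (2 higher and 1 lower at an unadjusted p under 0.05), and the other 4 lists had every tested gene called lower. Airway epithelium genes, among them keratins and cadherin, averaged 4.32 to 6.70 in day 14 allografts and 7.69 to 8.83 in day 14 isografts. They averaged 2.84 to 3.44 in day 25 allografts, 7.83 to 8.53 in day 25 isografts and 7.96 to 9.43 in native trachea, and 7 of the 9 had a mean of 5 or more in day 14 allografts and 0 in day 25 allografts. Secretory epithelium genes had 4.71 to 7.38 in day 14 allografts and 12.55 to 13.13 in day 14 isografts. They had 3.86 to 4.42 in day 25 allografts, 11.49 to 13.38 in day 25 isografts and 13.49 to 13.70 in native trachea. The part of these lists in the results was not tested.

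A gene of the MHC region differed between the groups on all 3 days. H2-Ea, a class II chain that some mouse MHC haplotypes do not make, had 6.21 to 7.15, 6.92 to 7.78 and 6.60 to 7.48 in day 4, 14 and 25 allografts. It had 8.56 to 8.96, 9.13 to 9.77 and 8.70 to 9.84 in isografts of the same days and 7.93 to 8.44 in native trachea. It was lower in allografts, with differences of -2.03 (adjusted p = 1.03e-07), -2.07 (adjusted p = 5.95e-09) and -1.97 (adjusted p = 1.15e-08) and no overlap. By design an allograft can hold cells of donor and recipient MHC types, and for the members in that region a difference in probe binding between alleles cannot be told apart from a difference in RNA. The strains are not given, so members outside that region, such as Psmb10 and Psme1, are not shown to be free of this.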

How the data were processed

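Total RNA of tracheal tissue was labelled with biotin and hybridised to 35 arrays, per the labels' protocols. The deposited table holds log2 values that the authors made with GCRMA 1.1.3, per the submitters' processing notes. GCRMA subtracts a modelled background, normalizes arrays by quantiles and summarises probes, so values near 2 to 4 carry little order and no absolute RNA amount. Probe sets were named from the platform annotation, with symbols updated through RefSeq (GRCm38.p6). Of 22690 probe sets 64 were controls. Of the rest 20380 named 1 gene, 691 several and 1555 none, and 13678 were tested.

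Group means of all 35 arrays were fitted together with limma 3.58.1 in R 4.3.3 (lmFit, contrasts, eBayes, 28 residual degrees of freedom), and p-values were adjusted within a comparison by Benjamini-Hochberg. The fit was checked on simulated data. Exact permutation tests used SciPy 1.17.1. Members and gene lists were chosen with earlier results of these data known, as were the 2 arrays that stood apart. Genes named beside the members were a set list of 19 pathway and marker genes, up to 2 called members of each list with the largest day 14 difference, and the 8 genes most like the members. Alternatives covered filters, array weights, variance model, normalization, centring, arrays fitted, thresholds, probe sets per gene, a replicate block and leaving out arrays. The number of arrays limits the precision.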

Additional observations from a re-analysis of the deposited data

Results flagged for a closer look

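The allograft-isograft difference of Ubd changed between days by more than the spread between arrays, in both steps. It grew by 3.78 on the log2 scale between day 4 and day 14 (limma interaction, adjusted p = 3.64e-10). It changed by -3.37 between day 14 and day 25 (adjusted p = 7.93e-09). The 5 day 14 allografts lay at 8.05 to 8.85, against 4.59 to 5.67 in the 5 day 25 allografts and 3.93 to 5.13 in the 5 day 4 allografts. Both changes kept their call under all alternatives run. Ubd passed the filter only through 8 arrays, all of them allografts, so some difference between groups was fixed in advance. Its isograft values also lie near the background of the arrays. No array stood out from its group in the 56 groups of member values examined.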

How the results depend on the processing

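Of the counts of called members recomputed with every array or without both arrays that stood apart, 193 stayed within 1.5 times their value and 17 did not. No allograft-isograft difference of a member on a single day changed sign under any alternative run. Changes of sign in the other comparisons were not counted. The change of the difference from day 4 to day 14 had 2 members called instead of 1 (Psmb8 added) with a filter at log2 7, array weights, repeated quantile normalization, centring on the array median, the replicate block, the compared groups alone, averaged probe sets, or without both arrays that stood apart. Day 4 allografts against isografts had 1 member instead of 2 with the compared groups alone (Ubd 1.02, adjusted p = 0.131) and with averaged probe sets, which leaves out Tap1. Day 14 isografts against native trachea had 1 instead of 2 with the compared groups alone, at adjusted p under 0.01, with a 2-fold minimum and with averaged probe sets. Day 4 isografts against native trachea had 1 instead of 3 at adjusted p under 0.01 and with the 2-fold minimum. Day 25 allografts against isografts had 4 instead of 7 with the 2-fold minimum. Leaving out 1 array at a time gave 2 to 3, 7 to 8 and 6 to 8 called for allografts against isografts on days 4, 14 and 25, 5 to 6, 7 to 8 and 7 to 8 for allografts against native trachea, 1 to 3, 1 to 3 and 2 to 3 for isografts against native trachea, 4 to 6 for day 14 against day 4 allografts, and 1 to 3 and 1 to 1 for the 2 changes of the difference. Whether same-numbered arrays pair was not settled. Of 15 same-numbered allograft-isograft pairs, 8 had an r over 0.1 (range -0.42 to 0.47). For 7 of the 15 allograft arrays the best match among the isografts of the day had the same number. With the replicate block, Psmb9 was added on day 4 (adjusted p = 0.0358), making 3 called, and Psmb8 in the change from day 4 to 14 (adjusted p = 0.0466). Against the deposited scale, centring on scaling reference genes moved the median of all probe sets tested by -0.13 for day 25 allografts against isografts, by 0.20 for day 25 isografts and 0.15 for day 14 isografts against native trachea, and by 0.15 for day 14 against day 4 isografts. Signal near background limits Ubd and Ifng.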

Other observations

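Some genes of the standard proteasome were lower in day 14 than in day 4 isografts. Day 14 isografts against day 4 isografts had 5 of 14 other 20S genes, 6 of 17 genes of the 19S regulator and 2 of 3 constitutive catalytic subunits called lower, none higher and the others not called (limma, 12.6% of all genes called lower). The medians were -0.54, -0.61 and -0.70 on the log2 scale, against 0.01 over all genes tested and 0.09 over the 8 members. Psma1, a 20S subunit, averaged 8.86 ± 0.29 in day 14 isografts and 9.73 ± 0.30 in day 4 isografts (SD, n = 5 each; difference -0.87, adjusted p = 0.0025). Psmd14, the deubiquitinase of the 19S regulator, averaged 8.46 ± 0.11 in day 14 isografts and 9.19 ± 0.20 in day 4 isografts (-0.73, adjusted p = 0.00103). Psme3, the activator not tied to class I loading, was lower by the same test (-0.81, adjusted p = 0.00437). In the same step 6 of 13 macrophage genes (median -0.81), 2 of 7 endothelial and 2 of 9 leukocyte genes were called lower, 8 of 8 secretory and 4 of 4 ciliated epithelium genes were called higher, and secretory epithelium genes had 12.55 to 13.13 in day 14 and 8.96 to 10.40 in day 4 isografts, and their part in the result was not tested. These 3 proteasome genes were chosen after their values were seen, and whether the members differ from the standard subunits in this step was not tested.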
